A study of Homo sapiens with 16 samples.

Results

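IMR32 cells treated with si45, a small interfering RNA (siRNA) against TPX2, were compared with IMR32 cells treated with siNTC, a non-targeting siRNA. IMR32 is an established human neuroblastoma line with amplified MYCN. The comparison used 8 of the 16 libraries of the series, 4 for si45 and 4 for siNTC, chosen by the siRNA named in their labels, and the column names place all of them at 48 h. The other 8 libraries carry si46 and si47, 4 each, which are further siRNAs against TPX2 in the same line, and they enter here only where si45 was tested against them. All groups share the cell line and the exposure to an siRNA, and no group of untreated cells was analysed here. The labels give brain as the tissue, neuroblast as the cell type and a replicate number, and they do not say whether replicates were separate transfections, so p-values measure the spread between these libraries. The features described are the 14193 genes, of 58787 in the table, that passed a filter on low counts over the 16 libraries.

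TPX2 is a microtubule-associated protein that is loaded onto spindle microtubules around chromosomes in mitosis, where it nucleates microtubules and binds and activates the kinase AURKA. The transcription factor p53 is stabilised by DNA damage and by faulty or prolonged mitosis. It induces genes of cell cycle arrest, cell death, metabolism and repair, together with its own negative regulator MDM2. Its target p21, the product of CDKN1A, holds back cyclin-dependent kinases, and genes of S phase and mitosis are then repressed through the DREAM complex, which is recruited to CHR and E2F elements in their promoters.

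The libraries held 5318159 to 6429681 counts for si45 and 5336540 to 6301696 for siNTC, and the totals of the groups did not separate (two-sided exact permutation p = 0.771). Levels are given as CPM, counts scaled to library size with TMM factors. Reads of this 3' end kit mostly mark transcript ends, so that a count does not grow with transcript length. The labelled cell type was checked against marker genes. All 10 adrenergic neuroblastoma markers were above 1 CPM in at least 1 library, with a summed level of 6249 to 6796 CPM in siNTC and 6599 to 7490 in si45. TH, the first enzyme of catecholamine synthesis, was low among them, with at most 5.03 CPM. Of 8 Schwann cell and 8 blood cell markers, 6 in each list stayed under 1 CPM in all 8 libraries, and SOX10, CDH19, FOXD3, CD3E, LYZ and HBB were at 0 counts. The summed fibroblast markers were 89.5 to 114 CPM in siNTC and 71.4 to 94.8 in si45, and none of the 4 that could be tested passed the test. Markers of the mesenchymal state of neuroblastoma were present too, mainly VIM and TWIST1. Their summed level was 470.1 to 522 CPM in siNTC and 529 to 610.5 in si45, without overlap. Averaged over the 5 tested members, log2(CPM + 1) minus the siNTC mean did overlap, at -0.085 to 0.156 in siNTC and -0.052 to 0.363 in si45. None of these members was called.

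TPX2 itself (plus strand of chromosome 20, 31739271 to 31801805, ENSG00000088325, GENCODE v29 on GRCh38) was checked before any other gene and stood at 315, 339, 297 and 359 CPM in siNTC replicates 1 to 4 and at 80.9, 79.4, 121 and 85.1 CPM in si45 replicates 1 to 4. All si45 libraries lay below all siNTC libraries, and si45 replicate 3 kept the most TPX2. The si45 mean was 28.0% of the siNTC mean, a log2 fold change of -1.84 (SE 0.121, edgeR adjusted p = 4.37e-11). A two-sided exact permutation test of this gene alone gave p = 0.0286, and groups of 4 cannot give a smaller value. The TPX2 partner AURKA had 170.5 ± 14.3 CPM in siNTC and 125 ± 27.2 in si45 (SD, n = 4), the groups overlapped, and its log2 fold change of -0.45 did not pass (edgeR adjusted p = 0.199). AURKB, the related kinase of the chromosomal passenger complex, was lower in all si45 libraries than in all siNTC libraries, at 374 ± 36.1 CPM against 282 ± 29.5, but missed the threshold as well (-0.41, edgeR adjusted p = 0.0569). MYCN was at 965 ± 97.8 and 1197 ± 245 CPM with overlapping groups (0.31, SE 0.154, edgeR adjusted p = 0.469).

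At an adjusted p under 0.05, the threshold used throughout, 190 of the 14193 genes differed between si45 and siNTC, which is 1.34%. Of these, 144 were higher (1.01% of the genes tested) and 46 lower (0.324%). The higher genes moved farther. Their median log2 fold change was 1.47 and 97 of them were at least 2-fold higher, whereas the lower genes had a median of -0.51 and only TPX2 and PLXNA4 were at least 2-fold lower. The groups of 4 libraries did not overlap in 172 of the 190 genes (130 higher, 42 lower), against 6.31% of all genes tested. Over all genes the median log2 fold change was 0.00097 and 49.9% were below 0, so the scaling left no overall shift. Without a correction for multiple testing, 844 genes were higher (5.95%) and 773 lower (5.45%) at a p under 0.05. Of the 190 genes, 113 overlap another annotated gene (93 of them on the opposite strand), and whether the counting used strand is not given in the sources used here, so some reads may belong to the other gene. In bulk RNA, fewer cells that express a gene and less of its RNA in each cell cannot be told apart.

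**Figure D1:**
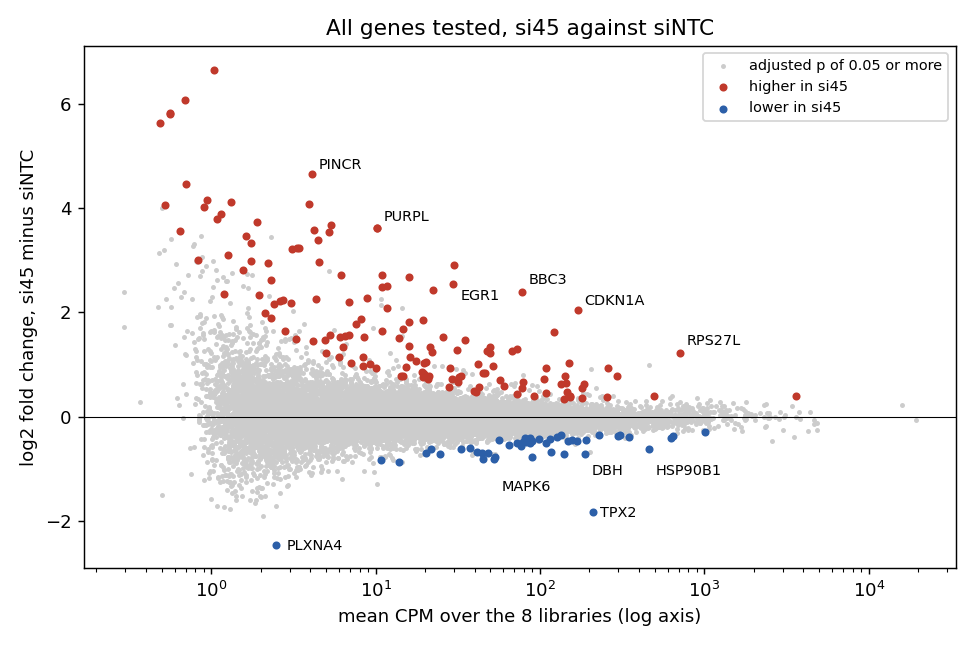
Each point is 1 of the 14193 genes tested, with its mean CPM over the 8 libraries on a log axis and its log2 fold change (si45 minus siNTC) on the vertical axis. The 144 genes called higher (red) reach log2 fold changes above 4 at low levels, while the 46 called lower (blue) lie close to 0 apart from TPX2 and PLXNA4.

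The direction of the calls varied with the level of the gene. Among 2480 genes with a mean under 20 counts per library, 33 were higher and 1 was lower. Among 2495 genes with a mean of 500 counts or more, 23 were higher and 25 lower. The median standard error of the log2 fold change was 0.537 in the first set and 0.0953 in the second, so small differences such as most of those seen among the lower genes could be called only where counts were high. In 20 of the higher genes no siNTC library held more than 3 counts, and in 5 of these all siNTC libraries were at 0. For those 5 the si45 level can be given only as a bound against 3 counts per siNTC library, which covers counting error only. It was at least 4.10-fold higher for TTLL1-AS1 and at least 1.92-fold higher for EPPK1, the highest and the lowest of the 5 bounds. By gene type, 100 of the higher and all 46 lower genes were protein-coding. This is 0.851% and 0.391% of the 11754 protein-coding genes tested, near the 1.01% and 0.324% of all genes. Long non-coding RNAs made up 21 higher genes, or 1.39% of 1511 tested, also near the share of all genes. Small nuclear, small nucleolar, 7SK or Y RNA genes made up 18. Of the small nuclear RNA genes tested 11.6% were higher, and of the small nucleolar or Cajal body RNA genes 7.79%.

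Among p53 target genes, every call under si45 was an increase. Of 90 protein-coding p53 targets that could be tested, of 118 listed, 34 were higher (37.8%, against 1.01% of all genes) and 0 were lower (edgeR, 62 higher and 1 lower at an unadjusted p under 0.05; 39 higher and 0 lower by DESeq2). Their median log2 fold change was 0.48, against 0.00097 for all genes, and 80 of the 90 were above 0. The list was drawn up with earlier results of these libraries known and is not independent evidence of its direction. In 39 of the 90 all si45 libraries were above all siNTC libraries, against 3.36% of all genes. The members not called ranged down to NINJ1 at -0.85 (edgeR adjusted p = 0.248) and CD82 at -0.52 (adjusted p = 0.725), whose groups overlapped.

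Genes that arrest the cell cycle or feed back on p53 held the densest block of calls. Of 17 tested members 14 were higher (82.4%, against 1.01% of all genes), with a median of 1.26. CDKN1A, which encodes the kinase inhibitor p21, was at 58.5, 33.6, 83.4 and 91.3 CPM in the siNTC libraries and at 258, 284, 246 and 307 in the si45 libraries. Every si45 library exceeded the highest control by more than the whole spread of the controls, and the ratio of the means was 4.1 (log2 fold change 2.04, SE 0.255, edgeR adjusted p = 0.000913). MDM2, the ubiquitin ligase that degrades p53, rose from 104, 93.1, 92.3 and 104 CPM to 218, 233, 152 and 199 (1.03, SE 0.141, adjusted p = 0.000174). Its controls lay close together and si45 replicate 3 was the lowest of the si45 libraries. PPM1D, a phosphatase that switches the p53 response off, was also higher by 0.84 (SE 0.137). RPS27L, a ribosomal protein paralog and p53 target, was the most abundant member that rose, from 406, 400.4, 452 and 444 CPM to 991, 1061, 945 and 982 (1.22, SE 0.0969, adjusted p = 1.51e-10). It varied little within either group. PLK2, a polo-like kinase induced by stress, moved most in this list (2.42, SE 0.28, adjusted p = 5.49e-05), from 6.89, 6.26, 7.19 and 7.81 CPM to 43.6, 50.3, 19.8 and 37.1, and again the increase was smallest in si45 replicate 3. The sestrins SESN1 and SESN2, which restrain mTORC1, rose by 1.69 (SE 0.227) and 1.34 (SE 0.194). PHLDA3, ZMAT3, TP53INP1, BTG2, PLK3, GADD45A and FBXW7 completed the 14, with FBXW7 the least changed at 0.38 (SE 0.0941). GDF15, CCNG1 and CCND1 did not pass. GDF15, a secreted stress cytokine, was at 4.04 ± 1.18 CPM in siNTC and 17.6 ± 7.03 in si45, without overlap, but its spread left an adjusted p of 0.0951 (edgeR, log2 fold change 2.14).

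**Figure D2:**
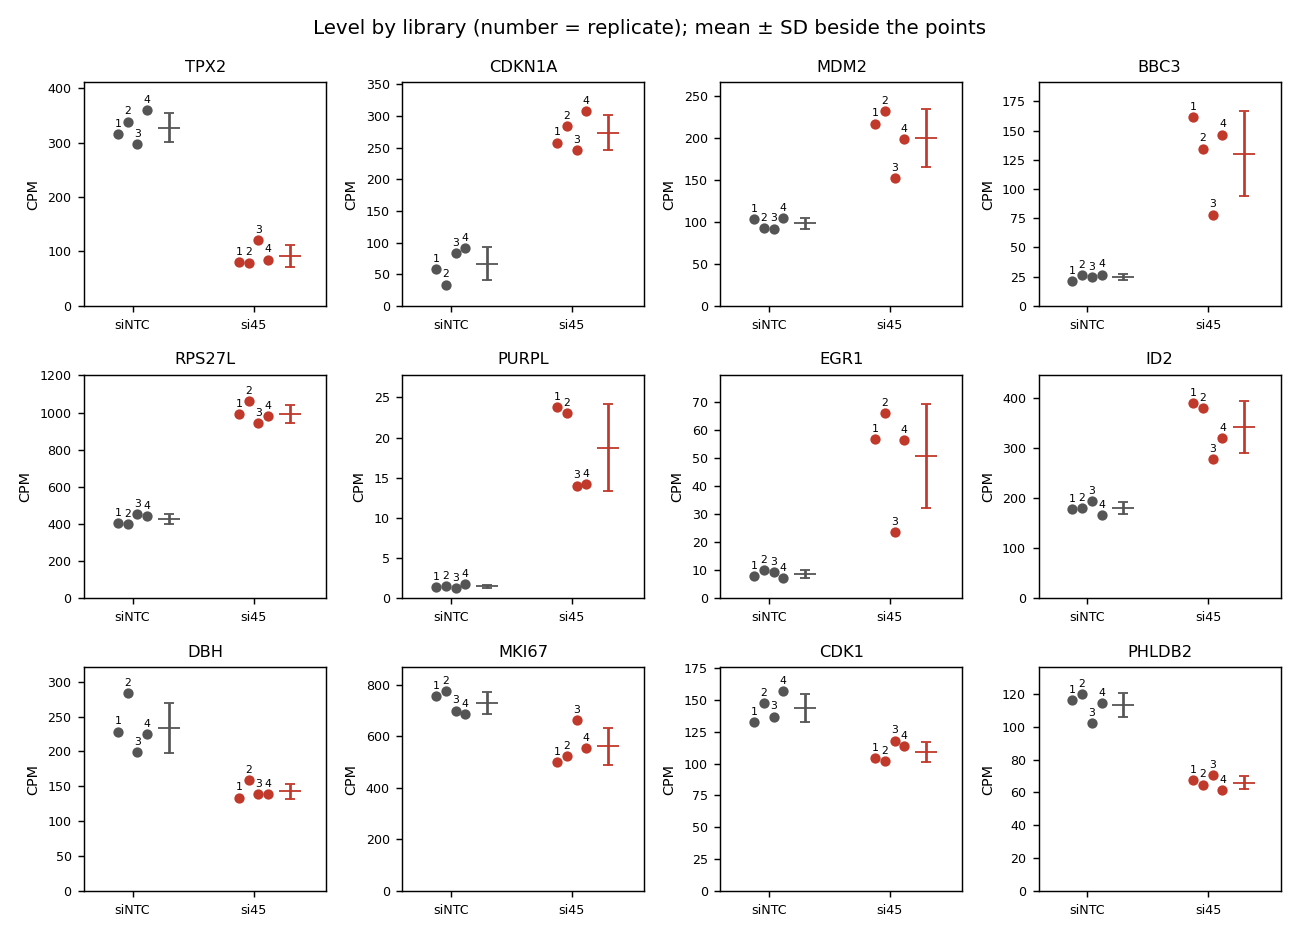
CPM of 12 genes in each siNTC (grey) and si45 (red) library, numbered by replicate, with the mean ± SD of the 4 libraries beside the points and every axis starting at 0. The groups do not overlap in any panel, and si45 replicate 3 lies nearest to the controls in every panel except DBH, where replicate 2 does.

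Among p53 targets of cell death and autophagy, 5 of 16 tested were higher (31.2%, against 1.01% of all genes). Their median was 0.53, and all 16 had a log2 fold change above 0. BBC3, which encodes the BH3-only protein PUMA, was at 21.2, 26.4, 24.8 and 26.7 CPM in siNTC and at 162, 135, 78.2 and 147 in si45, a 5.26-fold ratio of means (2.40, SE 0.245, edgeR adjusted p = 9.75e-05). The 3 higher si45 libraries lay between 135 and 162 CPM, and replicate 3 was at 78.2 CPM, also above every control. The death receptor TNFRSF10B rose from 26.5, 30, 24.2 and 30.7 CPM to 72.7, 61, 49.9 and 83.8 (1.26, SE 0.138). EDA2R, a receptor of the same superfamily, rose by 1.85 (SE 0.19), the autophagy regulator DRAM1 by 1.56 (SE 0.32) and the nuclease AEN by 0.36 (SE 0.0886). BBC3 was the only 1 of 15 tested BCL2 family genes to be called (6.67%, against 1.01% of all genes). The other p53-responsive BCL2 family genes, BAX and PMAIP1, had log2 fold changes of 0.46 and 0.36 with overlapping groups (edgeR adjusted p = 0.25 and 0.248). FAS was near its detection limit at 0.481 ± 0.49 CPM in siNTC and 1.72 ± 0.992 in si45, so its 1.77 has a standard error of 0.745. APAF1, the apoptosome scaffold, was at 0.01 (SE 0.196).

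Smaller p53 groups showed the same direction with fewer calls. The shares higher were 42.9% in DNA repair, 30.8% in metabolism and redox and 21.6% among other targets, against 1.01% of all genes. In DNA repair, 3 of 7 members were higher (median 0.59): DDB2 and XPC, which recognise damage in nucleotide excision repair, by 1.05 (SE 0.216) and 0.67 (SE 0.107), and the ribonucleotide reductase subunit RRM2B by 0.93 (SE 0.217). DDB2 was at 10.1, 10.2, 15.1 and 17.9 CPM in siNTC and 17.1, 31.3, 28.4 and 33.1 in si45, so that 1 si45 library fell within the control range. Without si45 replicate 3 the fit called 5 of the 7 repair genes higher. In metabolism and redox, 4 of 13 were higher (median 0.25), and 2 without siNTC replicate 2. FDXR, ferredoxin reductase of the mitochondrial electron chain to cytochromes P450, rose from 13.3, 10.3, 12.1 and 13 CPM to 31.1, 33.9, 29.5 and 28.9 (1.34, SE 0.155, edgeR adjusted p = 4.95e-07) with no overlap. The others were CMBL, PRKAB2 and CYP4F3, a fatty acid hydroxylase whose fitted 3.69 (SE 0.692) rests on 1.28, 0.313, 1.32 and 0.173 CPM in the controls and 8.23, 19.3, 5.37 and 7.0 in si45. Of 37 remaining p53 targets 8 were higher (median 0.39), among them IER5, PGF, TRAF4, CYFIP2 and FBXO22. In this group of other targets the number higher was 3 without si45 replicate 1, 4 without si45 replicate 4 or siNTC replicate 1 or 2, and 5 without siNTC replicate 3.

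Of 6 tested long non-coding RNAs linked to p53, 3 were higher (50%, against 1.01% of all genes). PURPL, a p53-induced RNA that has been tied to suppression of basal p53, was at 1.44, 1.56, 1.32 and 1.73 CPM in siNTC and 23.8, 23.1, 14 and 14.2 in si45, a 12.4-fold ratio of means (3.62, SE 0.294, edgeR adjusted p = 5.08e-10). PINCR, which lies on the X chromosome and is also p53-induced, had at most 3 counts in any siNTC library and stood at 8.85, 13.3, 2.95 and 6.43 CPM in si45. Its ratio over summed counts was 27.4 (95% counting interval 13.1 to 69.2). MIR34AHG, the host transcript of the miR-34a microRNA, likewise had at most 3 counts per control, and its ratio was 10.4 (95% counting interval 4.81 to 26.8). LNCTAM34A overlaps MIR34AHG on the opposite strand and was called as well, and since it is not known whether the counting used strand the reads of this pair cannot be assigned with certainty. The remaining 3 were NEAT1, TP53TG1 and LINC-PINT, at 0.91, 0.31 and 0.27 (edgeR adjusted p = 0.383, 0.797 and 0.872).

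The promoters of genes that rose were read for the p53 half-site, the 10-base element that p53 binds in pairs, because p53 targets led the calls. Windows from RefSeq (GRCh38.p14), reaching from 250 bases before to 50 after a transcription start, were found for 86 of the 144 higher genes and 10162 of the genes tested. A half-site on either strand was present for 18 of the 86 (20.9%), for 760 of the 10162 (7.48%) and for 2 of 35 lower genes (5.71%). In the list of p53 targets tested it was present for 10 of 78 with a window (12.8%). The windows of CDKN1A, MDM2 and BBC3 held none. Sites farther from the start or in introns, where several known p53 elements lie, were outside these windows. Windows of 30 bases are shown for 5 genes that rose and are p53 targets or neighbours of one. They read 5′ to 3′ on the strand of the gene, and capitals mark the half-sites.
PURPL: gcccaGGGCTTGTCTGGGCATGCCCacagt
LNCTAM34A: gctcgGAACAAGCCCAGGCAAGCCCaggca
DDB2: ggtttGAACAAGCCCtGGGCATGTTTggcg
FDXR: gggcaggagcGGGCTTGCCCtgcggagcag
RPS27L: ggcctagagcAGACAAGCCCgccccgccgc
The PURPL window (chr5:27472160-27472189, plus strand) and the LNCTAM34A window (chr1:9182139-9182168, plus strand) hold 2 half-sites with no base between them. The DDB2 window (chr11:47214974-47215003, plus strand) holds 2 half-sites separated by 1 base. FDXR (chr17:74872986-74873015, minus strand) and RPS27L (chr15:63157517-63157546, minus strand) hold 1 half-site each. A match is a description of these letters and no measure of binding.

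Further groups of higher genes were assembled after their values had been seen and are given as counts only. Of 33 tested immediate early genes, which respond to growth factors and stress within minutes to hours, 14 were higher (42.4%, against 1.01% of all genes), with a median of 0.94. With si45 replicate 1, siNTC replicate 1 or siNTC replicate 3 left out, 9 were higher. EGR1, a zinc finger factor of this class, was at 8.02, 10.2, 9.27 and 7.29 CPM in siNTC and 56.8, 66.2, 23.6 and 56.6 in si45 (2.55, SE 0.357, edgeR adjusted p = 0.00207). The si45 libraries were well apart from the controls, and replicate 3 was much the lowest of the si45 libraries. JUN, a subunit of the AP-1 factor, rose from 65.1, 64, 48.6 and 62.1 CPM to 213, 241, 117 and 169 (1.63, SE 0.322, adjusted p = 0.0263), although this call remained in only 1 of the 8 fits that leave out 1 library. Others of the 14 were ARC, IER3, NR4A2, SGK1, NAB2 and GADD45B. BTG2, PLK2, PLK3 and IER5 are counted here and among the p53 targets. FOS, the partner of JUN, was low at 1.24 ± 0.595 CPM in siNTC and 5.02 ± 2.46 in si45 and did not pass (edgeR adjusted p = 0.0713). The growth-restraining BTG and TOB genes gave 3 higher of 5 tested (60%), BTG1, BTG2 and TOB1. TOB1 rose from 17.6, 16.6, 22.5 and 18.4 CPM to 52.2, 54.1, 38.3 and 61.9 (1.46, SE 0.152, adjusted p = 7.99e-08).

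ID proteins bind basic helix-loop-helix factors and keep them off DNA, and their genes are classic targets of bone morphogenetic protein (BMP) signalling. ID1, ID2 and ID4 were higher, as was the BMP-responsive homeobox gene MSX1, which made 4 of 16 tested genes of this kind (25%, against 1.01% of all genes). Without si45 replicate 3 the number was 7. ID2 was the most abundant, at 178, 180.3, 194 and 165 CPM in siNTC and 389, 379, 278 and 319.7 in si45 (0.93, SE 0.11, edgeR adjusted p = 2.79e-06). ID4 rose from 3.69, 6.41, 2.46 and 5.2 CPM to 21.7, 28.3, 9.54 and 16.6 (2.09, SE 0.41, adjusted p = 0.0157). ID3 was higher in every si45 library than in every control but missed the threshold (0.81, SE 0.21, adjusted p = 0.065). The SMAD and receptor genes of the list that were tested did not pass.

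HEXIM1, which with the 7SK RNA holds the elongation kinase P-TEFb inactive, was at 43.6, 41.9, 43.5 and 38.3 CPM in siNTC and 125, 115, 74.2 and 98.4 in si45, with no overlap (1.31, SE 0.198, edgeR adjusted p = 0.00178). It was the only member of 12 tested P-TEFb regulators and 7SK partners to be called (8.33%, against 1.01% of all genes), too few to read. HEXIM2, LARP7, MEPCE and CDK9 were at 0.38, -0.11, -0.10 and 0.31.

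Some small non-coding RNA genes were among the calls. Of 179 tested, 18 were higher (10.1%, against 1.01% of all genes), while their median log2 fold change was 0.16 and 104 of the 179 were above 0. The calls fell unevenly over the families. They included 3 of 8 RN7SK-named genes, 3 of 5 RNU4 genes, which encode or resemble the U4 spliceosomal RNA, 2 of 7 RNU1 genes and 4 of 21 SNORD genes. None of 32 RNU6, 30 RN7SL and 11 SCARNA genes was called. The genes described first here were of moderate abundance and did not have the largest log2 fold changes. SNORD13, a guide RNA for ribosomal RNA acetylation, was at 5.61, 9.38, 7.56 and 5.55 CPM in siNTC and 74.5, 52.9, 37.6 and 47.5 in si45 (2.92, SE 0.282, edgeR adjusted p = 2.94e-05), and this call remained in all 8 fits that leave out 1 library. RNU4-2, a gene of the U4 RNA, was at 4.33, 4.22, 1.89 and 2.6 and 22, 27.8, 12.3 and 11.7 CPM (2.48, SE 0.369), and RNU6ATAC of the minor spliceosome at 6.57, 3.91, 2.08 and 4.51 and 40.2, 35.9, 20.5 and 13.6 CPM (2.68, SE 0.511). In all of these si45 replicates 1 and 2 were the highest. The RNU6ATAC call remained in 3 of the 8 fits that leave out 1 library. SNORD83A (4.09, SE 0.893) lies within RPL3, on the same strand, and this host gene had a log2 fold change of 0.17 (edgeR adjusted p = 0.604). The call of SNORD46 (3.62, SE 0.691) remained in 2 of the 8 fits that leave out 1 library. Most of these RNAs are not polyadenylated and several have near-identical copies, so how the kit and the counting treated them bears on the values and was not tested.

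Histone genes were mixed. Of 41 replication-dependent histone genes, whose messages mostly end in a stem-loop instead of a poly(A) tail, 4 were higher (9.76%, against 1.01% of all genes) and 1 lower (2.44%, against 0.324%), with a median of -0.06. H2BC8 (2.50, SE 0.453), H2BC21 (1.53), H2AC25 (1.88) and H4C9 (2.99) rose and H2BC9 (-0.67, SE 0.148) fell. H2BC8 was at 4.17, 3.13, 3.97 and 2.95 CPM in siNTC and at 28.4, 29.1, 7.46 and 15.3 in si45, where replicates 1 and 2 were far above replicates 3 and 4. The count of higher genes was 2 without siNTC replicate 2.

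Other genes among the 10 largest increases, with a mean of at least 20 counts, were NECTIN4, ACTA2, INPP5D and the unnamed gene ENSG00000251095. NECTIN4, an adhesion molecule, rose from 0.481, 0.469, 0.946 and 0.694 CPM to 10.9, 8.26, 6.94 and 5.3 (3.59, SE 0.384, edgeR adjusted p = 1.11e-07). ACTA2, smooth muscle actin, rose from 0.802, 0.469, 0.567 and 1.21 CPM to 8.07, 5.5, 7.98 and 11.3 (3.39, SE 0.397). It overlaps FAS on the opposite strand, so that reads of both cannot be told apart if strand was not used. INPP5D, an inositol phosphatase, was at 0.481, 0.313, 0.756 and 1.04 and 6.83, 6.73, 5.2 and 5.86 CPM (3.24, SE 0.475). The neuropeptide gene VIP, chosen after its values were seen, rose from 1.6, 2.03, 3.97 and 2.26 CPM to 10.7, 10.2, 9.71 and 14.6 (2.21, SE 0.263, adjusted p = 9.14e-07). In all 5 genes the groups did not overlap, and all were low in the controls. MTATP6P1, a nuclear pseudogene of a mitochondrial gene, was called higher by 0.79, which is uncertain because its sequence is nearly that of its mitochondrial source.

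**Figure D3:**
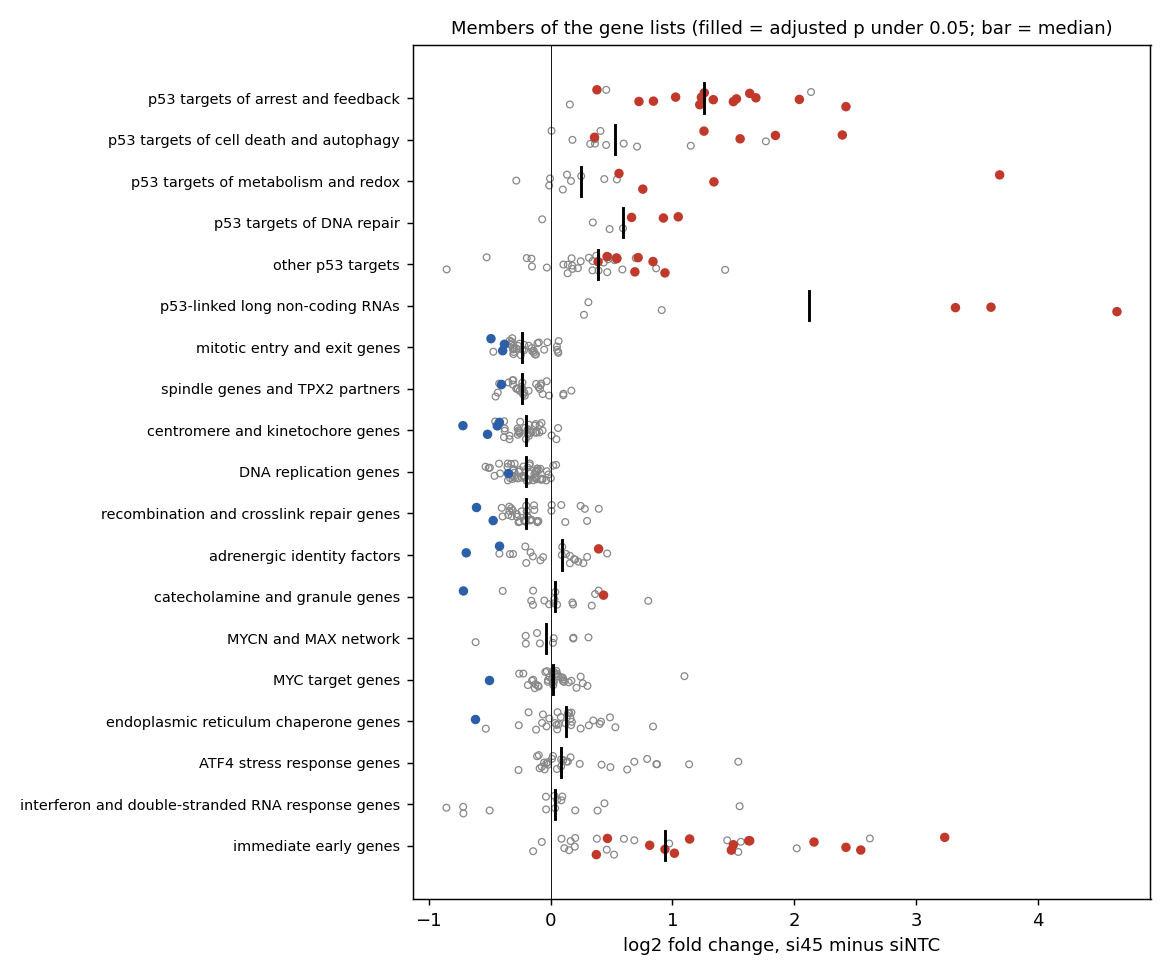
Log2 fold changes (si45 minus siNTC) of the tested members of 19 gene lists, 1 point per gene, filled where the adjusted p was under 0.05 (red higher, blue lower), with a bar at each list's median. The p53 lists and the immediate early genes lie to the right of 0. The 5 cell cycle lists lie slightly to the left with few filled points. The MYC, interferon and ATF4 lists have medians near 0.

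Few cell cycle genes passed the test, although most had log2 fold changes slightly below 0. Of 204 tested genes of replication, recombination, centromere, spindle and mitosis, 11 were lower (5.39%, against 0.324% of all genes) and 0 higher (edgeR, 88 lower and 0 higher at an unadjusted p under 0.05; 16 lower and 0 higher by DESeq2). The median log2 fold change was -0.21, against 0.00097 for all genes, and 182 of the 204 were below 0, against 49.9% of all genes. In 51 of the 204 all si45 libraries were below all siNTC libraries, against 2.95% of all genes. The count of calls rested on single libraries. The fit called 1 when si45 replicate 1 or siNTC replicate 2 was left out, 5 when si45 replicate 2 or 4 was, and 6 when siNTC replicate 4 was, but leaving out si45 replicate 3 gave 30. None of the 11 was called in all 8 such fits, whereas 23 of the 34 called p53 targets were. With the replicate number as a block, 43 of the 204 were lower and 0 higher.

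By function, the lower genes were spread over all 5 groups. The share lower was 7.89% in mitotic entry and exit, 3.12% in spindle and 10.5% in centromere and kinetochore genes. It was 1.72% in replication and 5.26% in recombination genes, against 0.324% of all genes. The spindle and replication lists held 1 call each, which is too few to read. Among 38 genes of mitotic entry and exit (median -0.24) 3 were lower. CDK1, the kinase that drives entry into mitosis, was at 133, 147, 137 and 157 CPM in siNTC and 104, 102, 118 and 113 in si45 (-0.39, SE 0.0955, edgeR adjusted p = 0.0238). MKI67, the proliferation antigen that coats mitotic chromosomes, was at 755, 774, 699.6 and 686 and 501, 523, 664 and 555 CPM (-0.38, SE 0.0873, adjusted p = 0.0151). In both genes every si45 library was below every control, with si45 replicate 3 the nearest. The third, CDCA2, which targets a phosphatase to chromatin at mitotic exit, fell by 0.49 (SE 0.105). TOP2A had a lower mean, 2987 ± 193 CPM in siNTC and 2157 ± 578 in si45, but the groups overlapped (edgeR adjusted p = 0.296), and CCNB1, the cyclin partner of CDK1, was at -0.10 (adjusted p = 0.853). Of 32 spindle genes (median -0.23) ASPM, which focuses spindle poles, was lower by 0.41 (SE 0.0892), from 673, 779.6, 736 and 685 CPM to 529, 544, 590.0 and 501.

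Of 38 centromere and kinetochore genes (median -0.20) 4 were lower, among them HJURP, the chaperone that deposits the centromeric histone CENP-A (-0.52, SE 0.107), CENPI (-0.72, SE 0.178) and NDC80, which attaches kinetochores to microtubules (-0.42, SE 0.103). HJURP was at 102, 95.1, 106 and 108 CPM in siNTC and 61.3, 74.9, 83.2 and 67.7 in si45, without overlap, and its call was lost only without si45 replicate 1. CENPI overlapped between the groups, at 21.2, 31.6, 36.9 and 33.8 and 16.9, 17, 22.9 and 18.2 CPM. Of 58 DNA replication genes (median -0.20) 1 was lower, the chromatin remodeller HELLS (-0.35, SE 0.0831). In this replication list 11 were lower without si45 replicate 3 and 0 without si45 replicate 1 or 4 or siNTC replicate 1 or 2. Of 38 recombination and crosslink repair genes (median -0.20) 2 were lower, the polymerase POLQ (-0.61, SE 0.162) and FANCD2, the Fanconi anaemia clamp (-0.47, SE 0.12). The POLQ and FANCD2 calls remained in 1 and 2 of the 8 fits that leave out 1 library. The number of lower centromere and kinetochore genes was 0 without si45 replicate 1, 1 without si45 replicate 4 or siNTC replicate 2, and 2 without si45 replicate 2 or siNTC replicate 3 or 4. For mitotic entry and exit it was 0 without siNTC replicate 2, 1 without si45 replicate 1 or 2 and 6 without si45 replicate 3. For the spindle list it was 0 without si45 replicate 1 or siNTC replicate 2, 2 without siNTC replicate 1 and 5 without si45 replicate 3.

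The CHR element, through which DREAM represses mitotic genes, was searched in the same RefSeq windows as TTTGAA or TTCGAA on both strands. It was found for 70 of 172 cell cycle genes with a window (40.7%) and for 1558 of 10162 genes tested (15.3%). Among all lower genes it was found for 8 of 35 (22.9%), and among all higher genes for 21 of 86 (24.4%). The windows of 4 cell cycle genes that were lower are shown, with the motif in capitals and the strand of the gene read 5′ to 3′.
CDK1: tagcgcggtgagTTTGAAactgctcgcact
MKI67: gaaTTTGAAtcttcgttttcgTTTGAAttg
HJURP: gacgcaaatttgTTTGAAaggcccaatcag
NDC80: gcggagaatTTCAAATTCGAAcggctttgg
The CDK1 window (chr10:60778453-60778482, plus strand) has its motif 13 bases before a RefSeq start, and 3 other matches lie in the CDK1 windows. The MKI67 window (chr10:128126444-128126473, minus strand) holds 2 matches. The HJURP window (chr2:233854629-233854658, minus strand) has 1 match 111 bases before the start. The NDC80 window (chr18:2571545-2571574, plus strand) holds 2 adjoining matches, TTCAAA, which is TTTGAA on the opposite strand, and TTCGAA, which reads the same on both strands.

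Outside the cell cycle lists the lower genes were of varied kinds. PLXNA4, a semaphorin receptor of growing axons, had the lowest fitted value (-2.46, SE 0.482, edgeR adjusted p = 0.00268), at 4.81, 4.54, 5.3 and 2.26 CPM in siNTC and 0.466, 0.764, 1.04 and 0.757 in si45, with no overlap. NRP2, a semaphorin co-receptor, was lower by 0.44 (SE 0.116), a call that remained in 1 of the 8 fits that leave out 1 library. The other 23 of 25 tested plexin, semaphorin and neuropilin genes did not pass. The 2 calls make 8% of this list, against 0.324% of all genes. PHLDB2, an adaptor that anchors microtubules at the cell cortex, was at 116, 119.8, 102 and 114 CPM in siNTC and 67.4, 64.7, 70.4 and 61.5 in si45 (-0.78, SE 0.116, adjusted p = 5.58e-05). The groups did not overlap and varied little within. Also among the 10 lowest were GYG2 (-0.87, SE 0.188), a glycogenin, LRFN1 (-0.81, SE 0.167), a synaptic adhesion protein, PHTF2 (-0.78, SE 0.144), TMEM65 (-0.83, SE 0.217), SUSD2 (-0.82, SE 0.19) and IGFBP5 (-0.72, SE 0.151), a binding protein of insulin-like growth factors. SUSD2 overlapped between the groups, and the TMEM65 call remained in 1 of those 8 fits. The potassium channel gene KCNK3 fell by 0.57 (SE 0.11) and CIP2A, an inhibitor of the phosphatase PP2A, by 0.51 (SE 0.10). Both were called in all 8 fits that leave out 1 library, together with only 7 others of the 46 lower genes: TPX2, PLXNA4, PHTF2, PHLDB2, DBH, MAPK6 and HSP90B1.

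Genes of neuroblast identity gave few calls. DBH, which encodes the enzyme that turns dopamine into noradrenaline, was at 228, 284, 199 and 224 CPM in siNTC and 134, 159, 138 and 139 in si45 (-0.71, SE 0.102, edgeR adjusted p = 2.78e-05). All si45 libraries were below all controls. Among the other 17 tested genes of catecholamine synthesis and secretory granules only CPE, a granule carboxypeptidase, changed, and it was higher (0.44, SE 0.104). The 1 higher and 1 lower call each make 5.56% of the 18 tested, against 1.01% and 0.324% of all genes. DDC and SLC18A2, which make and store dopamine, were at -0.14 and -0.39 (edgeR adjusted p = 0.876 and 0.789). Of 23 adrenergic identity factors (median 0.09) TBX2 was higher by 0.39 (SE 0.0898), and LHX9 and DACH1 were lower by 0.69 (SE 0.156) and 0.42 (SE 0.0969). The shares of this list were 4.35% higher and 8.7% lower, against 1.01% and 0.324% of all genes, with too few calls to read. None of these 3 calls remained in all 8 fits that leave out 1 library. The core factors GATA3, HAND2 and ISL1 were at 0.09, 0.20 and 0.19 and did not pass. None of the 5 tested mesenchymal markers, of 10 listed, was called (median 0.11; edgeR, 1 higher and 0 lower unadjusted; 0 by DESeq2). VIM, an intermediate filament protein of mesenchymal cells, was at 219, 217, 248 and 248 CPM in siNTC and 271, 253, 312 and 281 in si45 (0.26, SE 0.0918, edgeR adjusted p = 0.198), and TWIST1, a mesenchymal transcription factor, was at 0.10 (SE 0.0895). The groups did not overlap for VIM and overlapped for TWIST1.

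Several programs showed few or no calls. None of 10 MYCN and MAX network genes passed (edgeR, 0 higher and 1 lower at an unadjusted p under 0.05, and 0 by DESeq2). Of 38 MYC targets, mostly ribosome biogenesis genes, only the nucleoside transporter SLC29A2 changed (2.63%, against 0.324% of all genes called lower). Its log2 fold change was -0.50 (SE 0.131), and the list median was 0.02. Of 42 interferon and double-stranded RNA response genes 15 could be tested and 0 were called (median 0.04; edgeR, 1 higher and 2 lower unadjusted; 0 by DESeq2). With 1.34% of all genes called, lists of this size are too short to read anything from 0 calls. None of 14 genes of the RNA interference machinery was called (edgeR, 0 higher and 2 lower unadjusted; 0 by DESeq2). Of 29 ATF4 stress genes 0 were called (median 0.09). At an unadjusted p under 0.05 in edgeR 8 were higher and 0 lower, against 5.95% and 5.45% of all genes. The number called higher was 3 in DESeq2, 3 without si45 replicate 3 and 6 with the replicate number as a block. Their mean log2(CPM + 1) relative to the siNTC mean was -0.041 to 0.073 in siNTC and 0.079 to 0.349 in si45, without overlap. Of 25 sterol synthesis genes only FDPS was lower (-0.35, SE 0.0906), which is 4%, against 0.324% of all genes. A log2 fold change below 0 was seen in 18 of the 25 (median -0.10), against 49.9% of all genes.

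MAPK6 and HSP90B1 set si45 apart from the other siRNAs against TPX2. These were the only genes past the threshold against siNTC, si46 and si47 in the same direction. MAPK6, the atypical kinase ERK3, was at 139, 130.4, 147 and 157 CPM in siNTC, 88.8, 97.9, 88.3 and 84.9 in si45, 145, 145, 151 and 162 in si46 and 166, 154, 141 and 163 in si47. The 4 si45 libraries were below all 12 others. The log2 fold change was -0.67 against siNTC (SE 0.0888, edgeR adjusted p = 6.78e-06), -0.74 against si46 (SE 0.0887, adjusted p = 5.45e-06) and -0.79 against si47 (SE 0.0887, adjusted p = 2.49e-06). HSP90B1, the endoplasmic reticulum chaperone GRP94, was at 603, 571, 496 and 549 CPM in siNTC, 341, 433, 328 and 344 in si45, 538, 637, 461 and 556 in si46 and 569, 648, 494 and 612 in si47. Here too the si45 libraries were below all others, with si45 replicate 2 the highest of them. The log2 fold change was -0.62 against siNTC (SE 0.10, edgeR adjusted p = 0.000232), -0.60 against si46 (adjusted p = 0.00363) and -0.68 against si47 (adjusted p = 0.000437). None of the other 18 tested MAP kinase and associated genes was called under si45, with MAPK4 at 0.33. DUSP6 and DUSP4 of this list were at 1.384 and 1.085, and passed the threshold in 3 and 4 of 16 alternative fits. None of the other 30 tested endoplasmic reticulum chaperone genes was called, with HYOU1 at 0.04 and CALR at 0.06. With the replicate number as a block, 3 genes of the MAP kinase list and 2 of the chaperone list were higher. MAPK6 and HSP90B1 overlap other genes in the annotation. LEO1, on the opposite strand at MAPK6, was at 0.13 and UQCC6, on the opposite strand at HSP90B1, at 0.13 (edgeR adjusted p = 0.714 and 0.832).

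**Figure D4:**
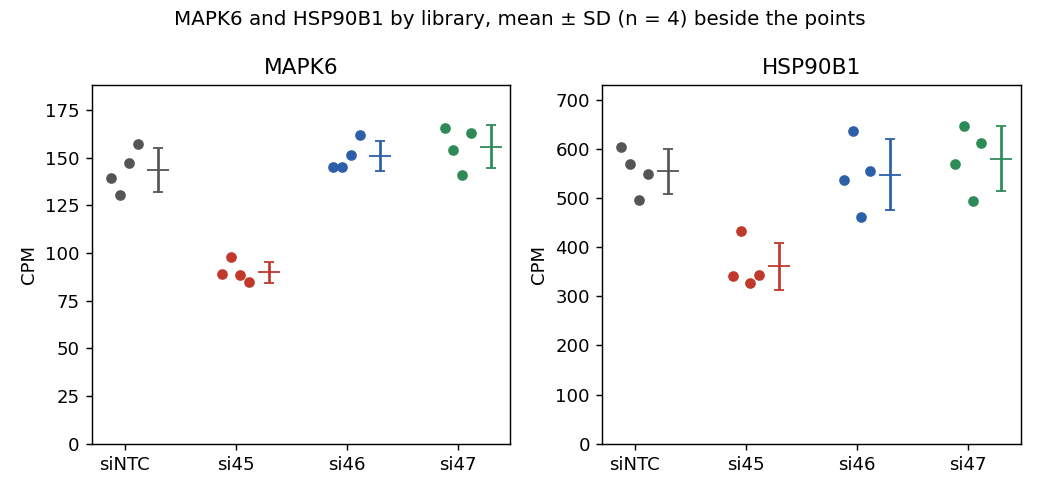
CPM of MAPK6 and HSP90B1 in the 16 libraries by siRNA, with the mean ± SD (n = 4) beside the points and axes starting at 0. The si45 libraries lie between 84.9 and 97.9 CPM for MAPK6 and between 328 and 433 CPM for HSP90B1, below every library of siNTC, si46 and si47.

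Direct tests found few further differences between si45 and the others. Against si46, 4 genes differed (0.0282% of those tested), MAPK6, HSP90B1, VDAC1 and SPCS3. The last of these were lower under si46 and at 0.23 (VDAC1) and -0.03 (SPCS3) under si45. Against si47, 24 genes differed (0.169%). Among them the p53 targets TP53INP1 and FBXW7 had risen less under si45. TP53INP1 was at 34.2, 28.7, 30.2 and 31 CPM under si45 and 56.7, 51.5, 44.9 and 50.3 under si47 (difference -0.71, SE 0.147, edgeR adjusted p = 0.0242), with controls at 13, 8.45, 18.2 and 13.4. HELLS had fallen less under si45, with 276, 299, 249 and 247 CPM against 199, 216, 207 and 204 under si47 (difference 0.38, SE 0.0837, adjusted p = 0.0479). Of the 204 cell cycle genes 6 differed from si47 and 0 from si46, and of the 90 p53 targets 2 and 0. These comparisons leave most genes unresolved, since a difference that misses the threshold does not show equal responses.

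The 4 si45 libraries did not respond to the same extent. The mean log2(CPM + 1) of the 90 p53 targets, relative to the siNTC mean, was 0.655, 0.685, 0.430 and 0.642 in si45 replicates 1 to 4, and -0.021 to 0.032 in the siNTC libraries. For the 204 cell cycle genes it was -0.245, -0.224, -0.167 and -0.182 in si45, and -0.032 to 0.019 in siNTC. The groups did not overlap on either measure, and replicate 3, which kept the most TPX2, was the nearest to the controls on both. It was also the si45 library nearest to the siNTC mean in 130 of the 190 called genes, against 6, 22 and 32 genes for replicates 1, 2 and 4. Without it 406 genes were called (269 higher, 137 lower), against 97 (85 higher, 12 lower) without si45 replicate 1 and 119 (97 higher, 22 lower) without siNTC replicate 2. The lower count alone was 24 without si45 replicate 2, 28 without siNTC replicate 1 and 30 without siNTC replicate 4. Of the 190 genes, 84 were called in all 8 fits that leave out 1 library (75 higher, 9 lower). The weaker response of si45 replicate 3 rests on 1 library. Whether that response goes with its TPX2 level or with its replicate number was not tested.

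**Figure D5:**
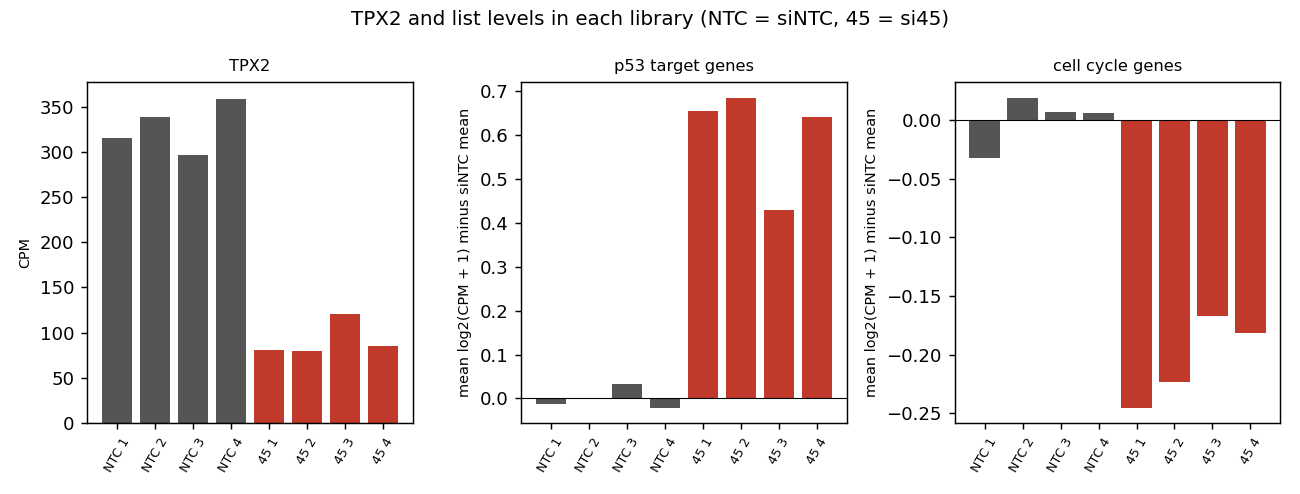
Bars give, for each siNTC (grey) and si45 (red) library, the CPM of TPX2 and the mean log2(CPM + 1) of 90 p53 target genes and 204 cell cycle genes minus the siNTC mean. si45 replicate 3 has the highest TPX2 of the si45 libraries (121 CPM), the lowest p53 target level (0.430) and the smallest decrease of cell cycle genes (-0.167).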

How the data were processed

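Libraries of total RNA were made with a 3' end QuantSeq kit and 15 PCR cycles, per the labels' protocols. The deposited table holds raw counts per gene, whole numbers that the authors did not normalize. FastQC 0.11.7, STAR 2.7.2b, edgeR 3.36.0, limma 3.50.3 and GRCh38 are named in the submitters' processing notes, while the counter, the annotation and the use of strand or molecular identifiers are not given in the sources used here. PCR duplicates may therefore be included, and intervals cover counting error only.

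The siRNA and replicate number in each column name gave its sample. Symbols matched 58434 of 58787 identifiers, and GENCODE v29 gave positions for 58515. Mitochondrially encoded genes were not analysed here. No pair of si45 or of siNTC libraries agreed within sampling noise (chi-square per degree of freedom 4.59 to 10.7).

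Genes were kept by filterByExpr (minimum count 10, minimum total 15) and fitted with edgeR 4.0.16 in R 4.3.3, with TMM scaling and a robust quasi-likelihood model of 4 group means over 16 libraries. Benjamini-Hochberg adjustment ran over all genes of a contrast (threshold 0.05). As standard error serves the log2 fold change divided by the square root of F. List levels use log2(CPM + 1). The code was tested on simulated data. Alternatives were other scaling factors, DESeq2 1.42.0, limma-voom (limma 3.58.1), other filters and thresholds, a replicate block, a fit of only the 8 libraries compared, and leaving out each library.

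The members and gene lists were chosen with earlier results of these data known. Genes named by rule were TPX2, AURKA, MYCN, MAPK6 and HSP90B1, the 10 highest and 10 lowest called genes with a mean of at least 20 counts, up to 3 genes per list with the lowest p, genes that differed from siNTC, si46 and si47, and up to 4 small RNA genes. Other genes were named after their values were seen. Some genes are not reported here. Promoter windows are RefSeq sequences (GRCh38.p14).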

Additional observations from a re-analysis of the deposited data

Results flagged for a closer look

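The total counts and the CPM of the named genes were examined in 200 groups of 4 libraries for 1 library far from the other 3. The measure was its gap relative to the range of the group. In 10 groups 1 library stood apart, and chance flags about 1 in 20, which is 10 of 200.

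In si45, replicate 3 held 121 CPM of TPX2 and the other libraries 79.4 to 85.1. LRFN1, which fell, was also highest in replicate 3, at 47.3 CPM against 26.9 to 29.1. For HSP90B1 the highest library was replicate 2, with 433 CPM, and the rest had 328 to 344. MIR34AHG in replicate 4 was at 6.24 CPM against 1.91 to 2.64. CKAP2, a spindle protein gene that was not called, was at 107 CPM in replicate 1 against 114 in the others, a narrow range in which a small gap stands out.

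In siNTC, SNORD83A in replicate 4 was at 1.39 CPM against 0 to 0.189, and GADD45B in replicate 2 at 1.25 CPM against 0.347 to 0.481. Both are low levels of a few counts. RRM2B in replicate 4 was at 9.71 CPM against 5.86 to 6.26, CEBPB in replicate 1 at 15.2 CPM against 12.3 to 12.5, and TBX2 in replicate 3 at 494 CPM against 399 to 411.

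Some genes differed between siRNAs in the direct test. MAPK6 was lower under si45 than under si46 and si47 by log2 differences of -0.74 and -0.79, and HSP90B1 by -0.60 and -0.68. TP53INP1 was lower under si45 than under si47 by -0.71, and HELLS was higher by 0.38.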

How the results depend on the processing

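The 190 changed genes (144 higher, 46 lower) became 292 (213 higher, 79 lower) with DESeq2, 356 (273 and 83) with no low-count filter, 126 (94 and 32) with at least 10 counts in every library, 96 (77 and 19) at an adjusted p under 0.01 and 99 (97 and 2) with a 2-fold requirement. Leaving out 1 library gave 97 to 406 changed genes, 85 to 269 higher and 12 to 137 lower. The share of higher genes was 75.8%, 66.3% without si45 replicate 3 and 87.6% without si45 replicate 1. RLE or upper-quartile factors, limma-voom and a fit of only the groups compared kept each of these counts within 1.5 times. No called gene changed sign under any alternative, and 59 of the 190 were called in each of them. The cause of the changes in count was not tested.

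With the replicate number as a block (replicate block), 577 genes were called, 334 higher and 243 lower, of which 43 were cell cycle genes. Same-numbered si45 and siNTC libraries correlated in their deviations by 0.0858 to 0.210, over 0.1 in 2 of 4 pairs. For these low values the numbers were not taken to pair the samples in the main fit. However, all 4 si45 and all 4 siNTC libraries correlated best with their own number. The smaller counts of the main fit therefore depend on leaving the replicate number out.

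MAPK6 and HSP90B1 remained distinct from siNTC, si46 and si47 under each alternative apart from the 2-fold requirement, which left 0. The replicate block gave 5 such genes, adding NAP1L1, PHTF2 and VMA21, and DESeq2 gave 3. TPX2 ranged from -2.00 without si45 replicate 3 to -1.77. Depth limits genes under 20 counts, whose median standard error was 0.537. Among them H2BC11 (log2 fold change 2.08, SE 0.621) and H3C1 (1.83, SE 0.642) missed the threshold. Changes of more than 2-fold can therefore be missed at this level.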
